A study of Mus musculus with 4 samples.

Results

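The genes described are 10 that handle zinc, manganese, copper and iron in mouse liver: Mt1, Mt2, Slc30a1, Slc30a10, Slc39a14, Slc40a1, Hamp, Tfrc, Cp and Fth1. They were taken by symbol from the 30827 genes that the platform annotation names, and each had 1 probe set of its own. RNA was measured on 4 single-channel arrays: wildtype and YAP-KO, each at 0 h and at 24 h. Each array held liver RNA pooled from 3 male mice, so the spread between mice is not seen. The wildtype group carried a floxed YAP gene, and the other group was labelled a knockout of YAP, which carries Hippo pathway signals to transcription factors. The 0 h groups were fasted; the 24 h groups were fasted and then given 300 mg/kg acetaminophen into the peritoneum. Age, strain, Cre driver and the cells that lost YAP are not given in the sources used here. No array came from mice at 24 h without acetaminophen, so the overdose cannot be told apart from time, handling or feeding.

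Metallothioneins are small cysteine-rich proteins that bind zinc and copper, and their genes are switched on through metal response elements by the zinc sensor MTF1, and also by glucocorticoids and interleukin 6. Hepatocytes take up iron through the transferrin receptor encoded by Tfrc and through the zinc, iron and manganese importer encoded by Slc39a14. They store it in ferritin, whose heavy chain is encoded by Fth1, and release it through ferroportin, the product of Slc40a1, with the help of the copper ferroxidase ceruloplasmin, the product of Cp. The liver hormone hepcidin, encoded by Hamp, causes ferroportin protein to be degraded; its gene is driven by bone morphogenetic proteins and by interleukin 6 through STAT3. Arrays measure RNA, not protein or metal.

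RefSeq promoter windows (GRCm38.p6) were at hand for 8 of the 10 genes, in 11 windows, and the 250 bases before each annotated start were searched on both strands. The sequences below are shown because metal response element letters and a STAT motif lie in front of the genes that differed most between arrays, or that stayed level beside them. Capitals mark the metal response element cores TGCACNC or TGCGCNC in the first 3 sequences and the STAT motif TTCNNNGAA in the last. Mt2 is shown for chr8:94172368-94172617 (+), Mt1 for chr8:94179055-94179084 (+), Slc30a1 for chr1:191906727-191906756 (+) and Hamp for chr7:30944030-30944279 (-).
Mt2: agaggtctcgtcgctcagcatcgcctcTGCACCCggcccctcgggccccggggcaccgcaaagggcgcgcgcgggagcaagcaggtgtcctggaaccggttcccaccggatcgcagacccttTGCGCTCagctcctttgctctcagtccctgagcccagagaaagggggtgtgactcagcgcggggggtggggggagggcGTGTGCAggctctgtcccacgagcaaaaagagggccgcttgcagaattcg
Mt1: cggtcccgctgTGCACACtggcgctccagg
Slc30a1: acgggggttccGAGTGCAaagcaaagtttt
Hamp: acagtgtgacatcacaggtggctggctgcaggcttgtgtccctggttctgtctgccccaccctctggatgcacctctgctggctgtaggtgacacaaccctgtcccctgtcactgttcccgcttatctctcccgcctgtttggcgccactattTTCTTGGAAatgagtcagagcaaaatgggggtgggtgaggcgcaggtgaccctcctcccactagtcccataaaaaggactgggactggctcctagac

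The Mt2 window held 3 metal response element cores, Mt1 and Slc30a1 held 1 each, Slc30a10 held 3 with 2 of them overlapping, and 1 of the Tfrc windows held 2 that overlap. The annotated start used for Mt1 lies inside the RefSeq span of the gene, so its window may miss part of the promoter. Cores outside that window were not counted, and the Mt1 count may be too low. Of 32851 windows of this length, 21.4% held at least 1 such core, 5.17% at least 2 and 1.26% at least 3. The STAT motif, present in 7.02% of windows, was found once among the members, in front of Hamp. The antioxidant response element core TGACNNNGC (10.2% of windows) was found for Mt2 and Slc30a1, and the hypoxia response element core ACGTG (16.6%) for Mt1, Slc30a10 and Tfrc. GGAATG, bound by the YAP partner TEAD (12.6%), was found in 1 of the Cp windows. A match describes letters in the window and is not evidence of binding.

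The deposited values were treated as log2 signal, inferred from their range, so a difference of 1 is 2-fold. With 1 array per group no difference has a replicate check, and differences of 2-fold or more are described by size, beside their share among the 18500 named genes that passed a filter on dim signal. All 10 genes passed that filter. Values within 0.01 of the highest on an array (19.86 and 19.93 for wildtype at 0 h and 24 h, 19.83 and 19.88 for YAP-KO) were treated as saturated. The hepatocyte markers Alb, Apoa1, Apob, Ttr and Serpina1c were saturated on all 4 arrays. The other hepatocyte marker listed, Cps1, was not. It went from 19.84 to 19.08 in wildtype and from 19.81 to 19.85 in YAP-KO, close to the highest value except in wildtype at 24 h. Yap1, the gene targeted, read 7.54 and 8.24 in wildtype and 6.31 and 6.01 in YAP-KO, a difference between genotypes of -1.23 before acetaminophen and -2.23 after it.

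Mt2, a metallothionein gene, was low on 1 array only. In wildtype it read 13.58 before acetaminophen and 19.93 after it, and in YAP-KO 19.83 before and 19.88 after. The 3 high values are the highest of their arrays and saturated. Relative to wildtype at 0 h, Mt2 was at least 6.25 higher in YAP-KO at 0 h and at least 6.35 higher in wildtype at 24 h, and no difference can be given among the other 3 arrays. Its paralog Mt1, its neighbour on chromosome 8, read 13.60 and 18.39 in wildtype, and 18.29 and 18.34 in YAP-KO. It too was low on the wildtype 0 h array and high on the other 3. The differences from wildtype at 0 h were 4.69 for YAP-KO at 0 h and 4.79 for wildtype at 24 h, 25.8-fold and 27.7-fold. Whether the probe sets of these similar genes cross-react is not known here.

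Mt1 was not at the highest value of any array, but it kept the same distance from it on 3 of them. On the wildtype 0 h array its distance was -6.26, and on the other 3 arrays it was -1.54 each time. Among 189 probe sets with a mean level of 12 or more whose other 3 arrays stood at least 1 unit above wildtype 0 h in this measure, only Mt1 and Mt2 kept their distance constant within 0.01. The small differences of Mt1 among these 3 arrays, 0.05 between times in YAP-KO and -0.05 between genotypes at 24 h, are those of the arrays' highest values. No order among the 3 is therefore read for either gene, and the Mt1 differences of 4.69 and 4.79 may be lower bounds. All of them rest on the wildtype 0 h array. With the 0 h arrays exchanged, the wildtype difference for Mt1 was 0.10 and the YAP-KO difference was 4.74.

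**Figure D1:**
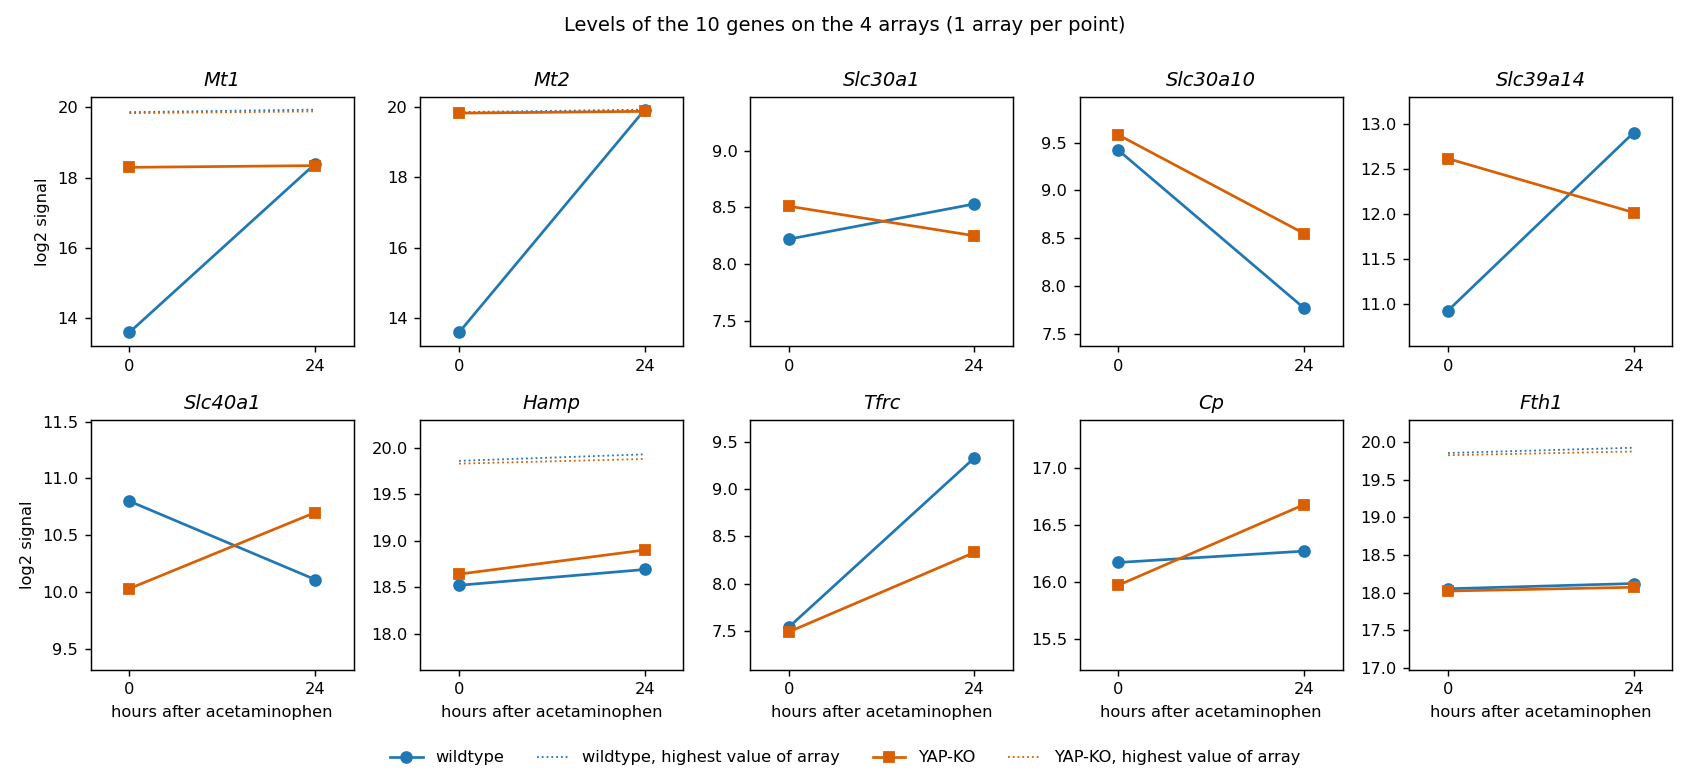
Level of each of the 10 genes as log2 signal (vertical axis, a separate range for each gene) at 0 h and 24 h after acetaminophen (horizontal axis), 1 array per point, wildtype as circles and YAP-KO as squares. Dotted lines give the highest value of each array where a gene exceeds 17; Mt1 and Mt2 were low in wildtype at 0 h alone, and the lines of Slc30a1, Slc39a14, Slc40a1 and Cp cross.

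Fth1, the ferritin heavy chain gene, kept its distance from the highest value on all 4 arrays. Its values were 18.05 and 18.12 in wildtype, and 18.02 and 18.07 in YAP-KO, with a distance of -1.81 each time. Of 540 probe sets with a mean level from 16 to 19, 16 (2.96%) kept the distance constant within 0.01, and of the 334 above 19, 200 (59.9%) did. Whether Fth1 changed can therefore not be read from these arrays. Ftl1, the ferritin light chain gene, varied: its own probe set went from 17.32 to 17.76 in wildtype and from 17.22 to 17.33 in YAP-KO, a difference of 0.44 between times in wildtype and 0.11 in YAP-KO. A probe set shared by Ftl1 and a microRNA gene differed by 0.74 and 0.35, and one shared by Ftl1, Ftl2 and microRNA genes by 0.48 and 0.17. Of 5 other genes of iron storage and release, Ftl1 among them, 0 differed 2-fold or more in any contrast. Their range over time in wildtype was -0.26 to 0.71. The share of all genes past 2-fold was 1.89% to 18.5%, depending on the contrast.

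**Figure D2:**
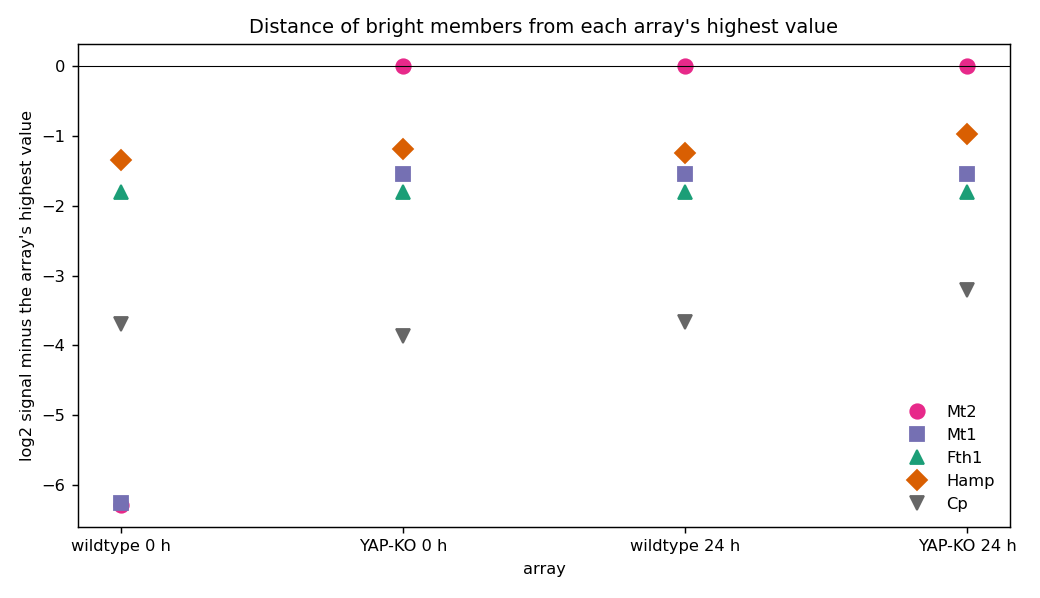
Log2 signal minus the highest value of the same array (vertical axis) for Mt2, Mt1, Fth1, Hamp and Cp on the 4 arrays (horizontal axis), 1 point per array. Mt2 lies at 0 and Mt1 at -1.54 on 3 arrays, Fth1 lies at -1.81 on all 4, and Hamp and Cp vary between arrays.

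Slc39a14, which encodes the importer ZIP14 and is known as a gene induced by interleukin 6 in liver, followed the metallothioneins in part. Its level was 10.93 before and 12.91 after acetaminophen in wildtype, and 12.62 before and 12.02 after in YAP-KO. Wildtype at 0 h was thus the lowest array here too, and wildtype at 24 h the highest. The difference between times was 1.98 in wildtype and -0.60 in YAP-KO, and YAP-KO stood 1.69 above wildtype at 0 h and differed from it by -0.89 at 24 h. Set against wildtype at 0 h, YAP-KO at 24 h was still 1.09 higher.

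The exporter genes did not follow. Slc30a1, encoding the zinc exporter ZnT1 and known as an MTF1 target, went from 8.22 to 8.53 in wildtype and from 8.51 to 8.25 in YAP-KO. No pair of its arrays differed by more than 0.31. Its window holds the same core, TGCACNC, as those of Mt1 and Mt2. Slc30a10, which encodes a manganese exporter, went from 9.42 to 7.77 in wildtype and from 9.58 to 8.55 in YAP-KO. Both 24 h arrays lay below both 0 h arrays. The difference between times was -1.65 in wildtype and -1.03 in YAP-KO, or -0.93 in YAP-KO with the arrays centred on their medians.

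Slc40a1, encoding the iron exporter ferroportin, went opposite ways in the genotypes. Its level went from 10.80 to 10.11 in wildtype and from 10.03 to 10.70 in YAP-KO. The wildtype 0 h array and the YAP-KO 24 h array were the high pair, and the other pair was low. The difference between times was -0.69 in wildtype and 0.67 in YAP-KO, each under 2-fold, and the difference of these responses was 1.36. Cp, the ferroxidase gene, went from 16.17 to 16.27 in wildtype and from 15.97 to 16.68 in YAP-KO. It was 0.71 higher at 24 h in YAP-KO and 0.10 higher in wildtype, where the sign turned to -0.35 after quantile normalization.

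Tfrc, the transferrin receptor gene, was level between the genotypes at 0 h and higher in both at 24 h. Its level went from 7.54 to 9.33 in wildtype and from 7.49 to 8.33 in YAP-KO. Both 24 h arrays lay above both 0 h arrays, with a difference of 1.79 in wildtype and 0.84 in YAP-KO. After acetaminophen YAP-KO differed from wildtype by -1.0, just at the 2-fold line, and by -0.88 after quantile normalization.

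Hamp, the hepcidin gene, was close to the top of the scale. Its level went from 18.52 to 18.69 in wildtype and from 18.64 to 18.90 in YAP-KO. Its distance from the highest value ranged over the arrays from -1.34 to -0.98, so it was not held at a constant distance, but signal this near the highest value may understate differences. The largest difference between any pair of arrays was 0.38. Its paralog Hamp2 read between 16.91 and 17.13 on the 4 arrays, and the array may not separate the pair.

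**Figure D3:**
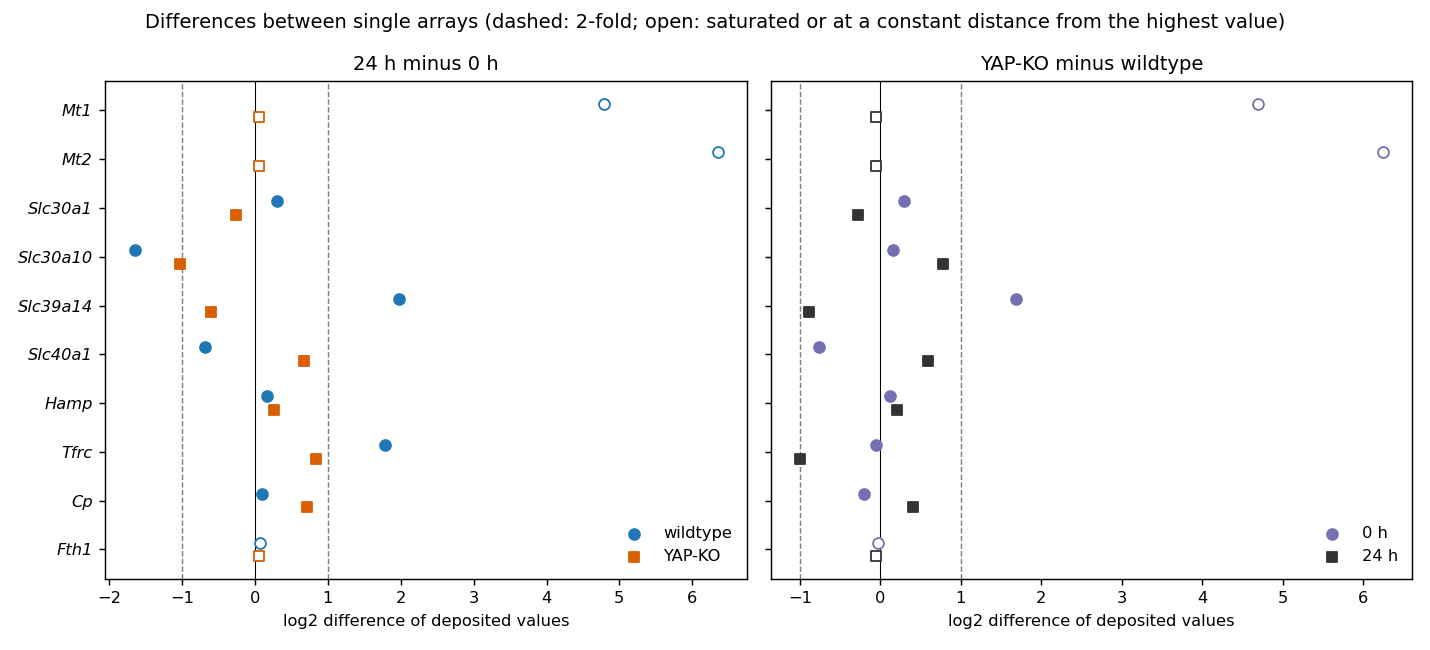
Log2 differences between single arrays (horizontal axes) for each of the 10 genes (vertical axis): left, 24 h minus 0 h in wildtype (circles) and YAP-KO (squares); right, YAP-KO minus wildtype at 0 h (circles) and 24 h (squares). Dashed lines mark 2-fold and open symbols mark Mt1, Mt2 and Fth1, whose values were saturated or at a constant distance from the highest value; Slc39a14 is above 1 in wildtype over time and in YAP-KO at 0 h.

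Over time in wildtype, 5 of the 10 genes differed 2-fold or more, against 18.5% of the 18500 genes. Of the members 4 were higher (12.7% of all genes), namely Mt1, Mt2, Slc39a14 and Tfrc, and 1, Slc30a10, was lower (5.88% of all). In YAP-KO 1 of 10 differed, against 6.95%: 0 were higher (4.74% of all) and Slc30a10 was lower (2.22%). Between the genotypes at 0 h the count was 3 of 10, against 1.89%. Mt1, Mt2 and Slc39a14 were higher in YAP-KO (1.02% of all genes) and 0 were lower (0.876%). At 24 h it was 1 of 10, against 8.96%: 0 were higher (3.23%) and Tfrc was lower in YAP-KO (5.73%). Over time in YAP-KO and between the genotypes at 24 h, differences of Mt1, Mt2 and Fth1 cannot be read. They were saturated or at a constant distance from the highest value on those arrays. Without these genes the count was 1 of 7 in each of the 2 comparisons.

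The wildtype comparison over time and the genotype comparison at 0 h share the wildtype 0 h array, on which Mt1, Mt2 and Slc39a14 had their lowest values. Between the genotypes at 0 h, Mt2 and Mt1 had the 2 largest differences of all 18500 genes in the deposited values. There 67 genes (0.362%), Slc39a14 included, differed at least as much as Slc39a14. Over time in wildtype, 898 genes (4.85%) differed at least as much as Slc39a14 and 1130 (6.11%) as Tfrc, each gene itself included. No rank is given there for Mt1 and Mt2, whose differences may be lower bounds. By the deposited values, 4 of 10 differed 2-fold or more between the 24 h responses, against 13.2%, with 1 higher (5.66% of all) and 3 lower (7.49%). The higher one was Slc40a1 at 1.36. The lower ones were Slc39a14 at -2.58 and Mt1 and Mt2, whose YAP-KO response cannot be read. The median difference over the 10 genes was 0.24 in wildtype over time and 0.05 in YAP-KO, with 0.07 over all 18500 in each. Between genotypes it was 0.14 at 0 h and -0.05 at 24 h, with -0.03 and -0.02 over all. The medians of 0.05 and -0.05 are the values of Mt1, Mt2 and Fth1, which cannot be read between those arrays. They are therefore not taken as the typical difference of the 10 genes.

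The only fit with an error term was additive, genotype plus time over the 4 arrays in limma, with 1 residual degree of freedom. Its Benjamini-Hochberg adjusted p was under 0.05 for 0 of 18500 genes (0.0%) for 24 h against 0 h and for 0 of 18500 (0.0%) for YAP-KO against wildtype; at an unadjusted p under 0.05 there were 2840 and 438. In this limma fit Slc30a10 had a time difference of -1.34 with adjusted p = 0.283, lower at 24 h in both genotypes. Tfrc had 1.32 with adjusted p = 0.296, higher in both. The limma adjusted p for time was 0.455 for Mt1 and 0.677 for Slc39a14. For each gene the difference between the genotypes' responses enters the error of the fit. The YAP-KO response of Mt1 cannot be read, so nothing is drawn from its adjusted p.

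Genes with the pattern most like that of a member were looked for among 13206 genes, by the Euclidean distance between their 3 differences from wildtype at 0 h. No distance is given for Mt1, whose differences may be lower bounds. For Slc39a14 the nearest were Creb3l2 (0.418), encoding a transcription factor of the endoplasmic reticulum, Phlda1 (0.509) and Apobec1 (0.542). For Tfrc they were Cep192 (0.051), Pold4 (0.092) and the neutrophil receptor gene Csf3r (0.094), and for Hamp, whose differences were small, Gimap8 (0.046), Mrps7 (0.047) and Kng2 (0.049). Each distance covers 4 arrays.

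Other genes of zinc, iron, heme and copper handling were listed by role, 101 in all, of which 98 had a probe set of their own and 89 passed the filter. In wildtype 16 were 2-fold or more higher at 24 h and 8 lower, 27.0% together beside 18.5% of all 18500 genes. In YAP-KO 5 were higher and 2 lower, 7.9% together, near the 6.95% of all genes. The median difference was 0.15 and 0.19. Between the genotypes 5 were higher and 0 lower in YAP-KO at 0 h, 5.6% beside 1.89% of all genes, and 8 higher and 7 lower at 24 h, 16.9% beside 8.96%. Lcn2, encoding the siderophore-binding lipocalin 2, was 6.27 higher at 24 h in wildtype and 3.63 in YAP-KO, and 2.68 higher in YAP-KO at 0 h.

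Of 6 further zinc exporter genes that passed the filter, 2 were 2-fold or more higher in wildtype at 24 h, beside 12.7% of all genes. Of the 6, 0 were lower (5.88% of all) and 4 were neither, with a range of -0.48 to 2.31. The higher ones were Slc30a4 (2.31) and Slc30a7 (1.42). The same 2 were higher in YAP-KO (1.21 and 1.15), beside 4.74% of all genes. Slc30a5, which loads zinc into the secretory pathway, was instead 1.39 higher in YAP-KO at 0 h. Of 11 importer genes 4 were higher in wildtype (12.7% of all genes), 1 was lower (5.88%) and 6 were neither. The higher ones were Slc39a10 (2.13), Slc39a6 (1.77), Slc39a7 (1.40) and Slc39a1 (1.24). Slc39a8, the closest relative of Slc39a14, was 2-fold lower at -1.0. None of the 11 differed 2-fold over time in YAP-KO, beside 6.95% of all genes. There Slc39a10 was at -0.01, Slc39a6 at 0.64, Slc39a7 at 0.78 and Slc39a1 at 0.99. The gene of the zinc sensor, Mtf1, lay between 7.25 and 7.44 on all 4 arrays. Mt3 and Mt4, which lie in the same cluster as Mt1 and Mt2, read between 4.12 and 4.99, close to the filter level of 4.322.

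Of the 20 genes of hepcidin control that passed the filter, 2 were higher (12.7% of all genes) and 2 lower (5.88%) at 24 h in wildtype. In YAP-KO 1 was higher (4.74% of all genes) and 0 were lower (2.22%). Hamp itself differed by 0.17 in wildtype and 0.26 in YAP-KO. The lower ones in wildtype were Hjv and Tmprss6. Hjv, encoding the bone morphogenetic protein coreceptor hemojuvelin, went from 10.94 to 8.44 in wildtype and from 10.57 to 11.07 in YAP-KO. Wildtype at 24 h stood alone, with a difference of -2.50 between times against 0.50 in YAP-KO. Tmprss6, whose protease cleaves hemojuvelin, differed by -2.17 in wildtype and -0.97 in YAP-KO. Fgl1, known to block bone morphogenetic protein signals to hepcidin in mice, was 2.71 and 2.24 higher. Id1, a target gene of those signals, was 2.26 higher in wildtype and 0.24 in YAP-KO, and Smad1, which carries them to the nucleus, was 0.98 higher in wildtype with -0.08 in YAP-KO. Atoh8, a transcription factor gene, differed by -0.85 and 0.17, and the ligand gene Bmp6 by -0.15 and -0.44.

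Of 8 further iron uptake genes that passed, 1 was 2-fold or more higher at 24 h in wildtype, beside 12.7% of all genes, and 7 were neither. The higher one, Steap1, differed by 1.32, with 0.54 in YAP-KO. It was dim: its 0 h levels of 4.05 in wildtype and 4.01 in YAP-KO lay under the filter level of 4.322. The metalloreductase gene Steap4 was 3.31 higher in YAP-KO than in wildtype at 0 h and 1.93 at 24 h, and its differences over time were 0.18 in wildtype and -1.20 in YAP-KO. Tfr2, the second transferrin receptor, differed by -0.94 in wildtype and 0.27 in YAP-KO, and stood 1.03 higher in YAP-KO at 24 h. Slc11a2, encoding the divalent metal transporter, was 0.27 and 0.82 higher. Trf, the transferrin gene, was saturated on all 4 arrays. Neither of 2 further iron export genes, Heph and Hephl1, passed the filter. Of 3 iron regulatory genes, 1 was 2-fold or more higher in wildtype over time (12.7% of all genes) and 1 lower (5.88%). Fbxl5, whose product degrades an iron regulatory protein, was 1.21 higher in wildtype and 0.23 in YAP-KO. Ireb2, which encodes that protein, differed by -1.31 and -0.58.

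Of 11 genes of heme breakdown and scavenging, 3 were 2-fold or more higher over time in wildtype, beside 12.7% of all genes. Of the 11, 1 was lower (5.88% of all) and 7 were neither. The 7 include Hpx, which read 19.82 and 19.85 in wildtype and 19.79 and 19.87 in YAP-KO. It was saturated on 1 array and near the highest value on the rest, so any difference may be hidden. Hmox1, encoding the heme oxygenase that frees iron from heme, went from 7.39 to 12.68 in wildtype and from 8.40 to 9.96 in YAP-KO, 5.29 and 1.56 higher. The heme transporter genes Slc48a1 (2.07 and 0.53) and Flvcr1 (1.78 and 0.92) were higher too, while Lrp1, a receptor for hemopexin-bound heme, differed by -1.49 and 0.33. The macrophage receptor gene Cd163 was -1.06 in YAP-KO against wildtype at 24 h. Among 7 heme synthesis genes, 1 was 2-fold or more lower in wildtype over time, beside 5.88% of all genes, and 6 were neither. The lower one was Cpox (-1.28 and 0.66). Alad (-0.86 and 0.67) and Ppox (-0.35 and 0.75) differed in the same directions. Alas1, the rate-limiting enzyme gene of liver heme synthesis, differed by 0.45 and -0.31. At 24 h 3 of the 7 were 2-fold or more higher in YAP-KO than in wildtype, beside 3.23% of all genes. These were Cpox (1.58), Alad (1.36) and Ppox (1.19). The other 4 were neither, and the lowest was Alas1 at -0.13. Among 6 mitochondrial iron genes, 2 were 2-fold or more higher in wildtype over time, beside 12.7% of all genes, and 4 were neither. Slc25a37, a mitoferrin gene, and Isca1 were 1.41 and 1.17 higher, with 0.18 and 0.43 in YAP-KO. The other mitoferrin gene, Slc25a28, differed by 0.83 and 0.18. Among 8 copper handling genes, 2 were 2-fold or more lower in wildtype over time, beside 5.88% of all genes, and 6 were neither. The uptake transporter gene Slc31a1 differed by -1.10 and 0.22, and Ccs, the copper chaperone gene of superoxide dismutase, by -1.68 and -1.20.

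**Figure D4:**
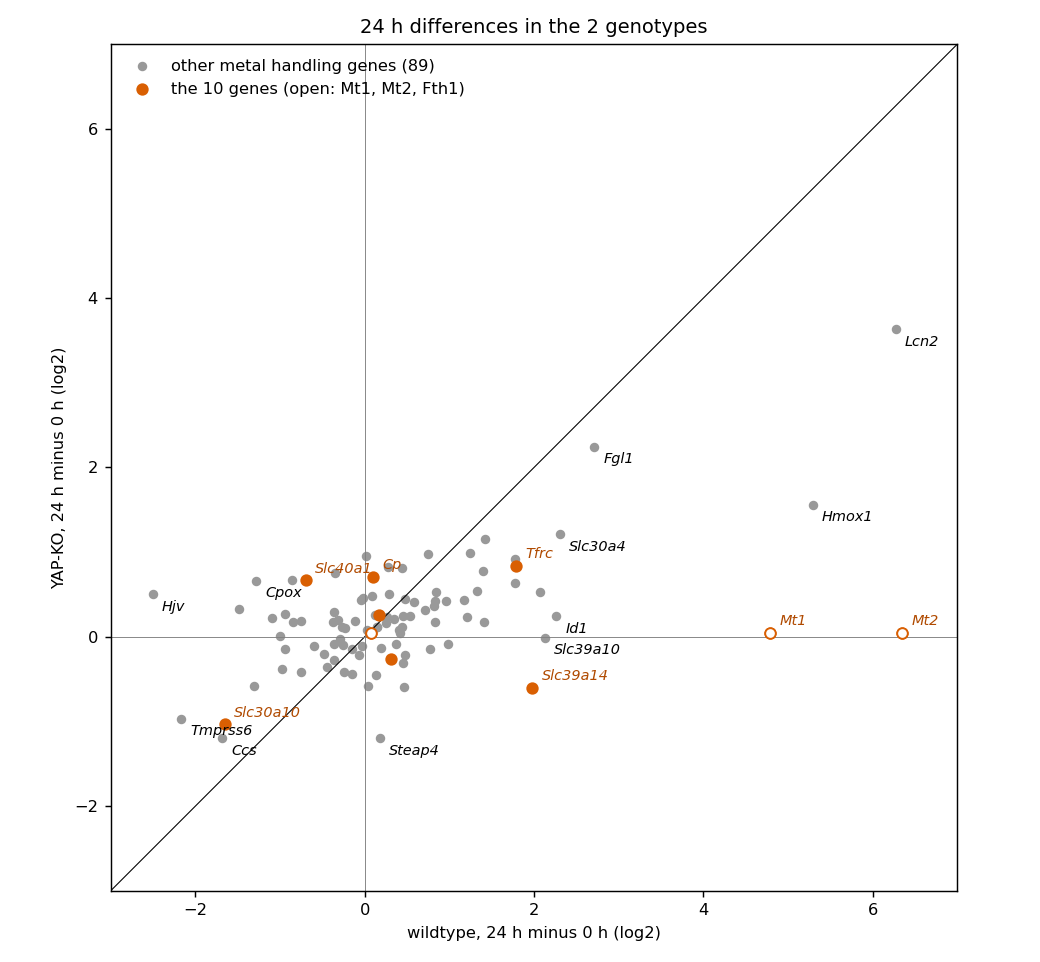
Log2 difference between 24 h and 0 h in wildtype (horizontal axis) against that in YAP-KO (vertical axis) for the 10 genes (orange, with Mt1, Mt2 and Fth1 open) and 89 other metal handling genes (grey), 1 point per gene; the diagonal marks equal differences. Hmox1 and Lcn2 lie right of the diagonal, Hjv lies at the left edge at -2.50 and 0.50, and the YAP-KO values of Mt1 and Mt2 cannot be read.

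Readouts of cytokine and glucocorticoid action were listed beside Slc39a14, Hamp and the metallothioneins. Of 10 genes, 5 were 2-fold or more higher in YAP-KO at 0 h, beside 1.02% of all genes, among them Saa2 (4.31) and Saa1 (3.97). Over time in wildtype Saa1 and Saa2 differed by -0.83 and -0.65, whereas Mt1 and Slc39a14 were higher. The next 5 genes were picked after their values were seen. Stat3 went from 9.35 to 10.42 in wildtype and from 10.59 to 10.71 in YAP-KO. Il1r1, the interleukin 1 receptor gene, went from 12.04 to 13.64 and from 15.68 to 13.63. For both genes wildtype at 0 h was the lowest array. The 3 glucocorticoid targets listed differed among themselves. Tsc22d3 was highest on that array, going from 9.12 to 6.85 in wildtype and from 8.16 to 8.0 in YAP-KO. Fkbp5 was lowest on it, going from 6.92 to 7.63 and from 7.69 to 7.17. Per1 was 2.03 higher over time in wildtype and 0.39 in YAP-KO. The remaining listed genes were Il6ra, Orm2 and Socs3. Il6ra was lowest in wildtype at 24 h, going from 10.07 to 9.58 and from 11.12 to 9.93 in YAP-KO. Orm2 was high in YAP-KO at 24 h only, going from 13.34 to 13.51 and from 13.44 to 17.01. Socs3 was lowest in wildtype at 0 h, going from 4.71 to 5.43 and from 5.23 to 5.26.

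Markers of other cells differed between the same arrays, and fewer cells of a type cannot be told apart from less RNA per cell. Over time, 12.7% of all genes were 2-fold or more higher in wildtype and 4.74% in YAP-KO. Among monocyte and macrophage markers it was 5 of 6 in wildtype and 6 of 6 in YAP-KO. The summed level of these markers went from 11.18 to 13.76 and from 10.88 to 13.75. The sum of 6 Kupffer cell markers went from 11.60 to 13.04 in wildtype and from 11.52 to 12.15 in YAP-KO, with 4 and 2 of the 6 higher; Clec4f, a defining marker, was 0.00 and -0.70. Slc40a1 and Hmox1 are also expressed by macrophages. The sum of 6 neutrophil markers went from 7.84 to 11.20 and from 8.07 to 9.25, with 4 and 3 of 5 higher, beside Lcn2 and Tfrc. The marker Ly6g differed by -0.63 in wildtype and 0.09 in YAP-KO, and Ngp did not pass the filter. At 0 h the macrophage, Kupffer cell and neutrophil sums lay within 0.30 of each other between the genotypes. At that time 0 of these markers differed 2-fold, beside 1.89% of all genes. Only 2 of 7 erythroid markers had a probe set of their own; 2 probe sets shared by alpha globin genes were 3.56 and 3.61 higher at 24 h in wildtype and 0.66 and 0.76 in YAP-KO, beside the Tfrc difference. Alas2, the erythroid heme synthesis gene, went the other way, with -2.24 and -1.86. The sums of endothelial (12.20 to 13.98), stellate cell (13.13 to 14.48) and cholangiocyte markers (7.39 to 9.24) were higher in wildtype at 24 h as well, and in YAP-KO they went from 12.17 to 12.37, 13.19 to 13.37 and 7.54 to 8.52. Few genes carried these sums: in wildtype 2 of 5 endothelial markers were 2-fold higher (median 0.15, largest Lyve1 at 5.51), 2 of 6 stellate cell markers were higher and 1 was lower (median 0.31), and 1 of 4 cholangiocyte markers was higher (median 0.02, Sox9 at 2.53). The part of these cells in the differences of the 10 genes was not tested.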

How the data were processed

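Biotin-labelled RNA from 4 pools of 3 livers was hybridised, per the labels. The deposited values, 1 per probe set (65956) and array, were taken as log2 signal from their range of 2.24 to 19.93. How they were summarised, background corrected and normalized is not given in the sources used here. Precision is limited by the number of arrays. Of the probe sets, 31388 had 1 gene in the platform annotation, 1362 several and 33206 none; 853 symbols were updated by Entrez identifier to RefSeq (GRCm38.p6). The brightest probe set stood for a gene. A gene entered the counts if its mean over the 4 arrays reached 4.322, the 40th percentile over genes, which left 18500 of 30827.

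Differences of single arrays were taken with Python 3.11.15 and the additive fit with limma 3.58.1, after a test on simulated data. Alternatives were quantile normalization, median centring, the mean of probe sets, other fold thresholds, other filters, saturated genes left out and the other 0 h array. The genes named were the 10 members, listed genes 2-fold or more in any contrast with a few key regulators, the largest examples of the marker lists and the 3 genes nearest in pattern to Slc39a14, Tfrc and Hamp. The members, lists and rules were chosen with earlier results of these data known.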

Additional observations from a re-analysis of the deposited data

Results flagged for a closer look

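Of the 10 genes, 3 had opposite signs between 24 h and 0 h in the genotypes, each on 1 array per group, and the difference was not tested. Slc39a14 was 1.98 higher in wildtype and -0.60 in YAP-KO, a difference of responses of -2.58. Slc40a1 was -0.69 and 0.67, a difference of 1.36. Slc30a1 was 0.31 and -0.26, a difference of -0.57, with both values under 1.5-fold.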

How the results depend on the processing

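No paired analysis was possible because each group holds 1 array, so no array could be left out either. Of the counts of the 10 genes at 2-fold or more, the 5 in wildtype over time became 2 at 4-fold, 3 without genes saturated or at a constant distance from the highest value (chosen after seeing the data) and 2 against the YAP-KO 0 h array. The 1 in YAP-KO over time became 0 with centred arrays, 5 at 1.5-fold, 0 at 4-fold and 3 against the wildtype 0 h array. The 3 between genotypes at 0 h became 1 without genes saturated or at a constant distance. The 1 at 24 h became 0 after quantile normalization, 4 at 1.5-fold and 0 at 4-fold, and the 4 for the difference of responses became 7 at 1.5-fold and 2 without genes saturated or at a constant distance. Leaving out genes and changing the fold threshold alter these counts by construction; for the rest the cause was not tested. The limma fit called 0 genes under all 6 of its alternatives, with a smallest adjusted p of 0.227 to 0.334 for time and 0.995 to 1 for genotype.

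For single genes, quantile normalization moved 0 of 50 differences by 1.5-fold or more. The other 0 h array moved 8 of 20, those of Mt1, Mt2, Slc39a14 and Slc40a1. Centring and the mean of probe sets also moved 0 of 50, but by construction. Each of these genes had 1 probe set, and centring shifts all genes of an array alike, here by less than 1.5-fold. Centring moved the median of all genes by 0.15 in wildtype over time. Of genes 2-fold or more, 68.3% were higher in wildtype over time, or 57.8% after quantile normalization, and 36.1% were higher in YAP-KO at 24 h, or 48.6%. With 1 array per group, no difference can be set against a spread between mice, and saturation hides any difference of Mt2, and may hide that of Mt1 and Fth1, among bright arrays.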
